A study of Mus musculus with 20 samples.

Results

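Interferon-stimulated genes are the genes that cells switch on when interferon binds its receptor, and 42 of them were followed here in hypothalamus from male C57BL/6J mice. The members were 42 listed symbols, kept where the gene had at least 10 read counts in 3 or more libraries. All 42 met that rule, out of 54532 genes in the table, of which 19139 met it. The study asked which hypothalamic genes change after a short course of Gly-Low, a glycation-lowering diet, and whether a long course alters the changes of age. There were 20 RNA-seq libraries in 5 groups of wild-type mice. The acute arm held 5 control-diet and 4 Gly-Low libraries from mice 4 months old, fed for 1 week. The ageing arm compared 4 libraries of young controls, which were 3 months old and had 1 week of control diet, with mice 25 months old that had been fed for 5 months, as 4 old control and 3 old Gly-Low libraries. The labels do not say that each library is a separate animal, so the tests measure the spread between libraries.

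In the canonical pathway, sensors of foreign or misplaced nucleic acid such as RIG-I and MDA5 trigger production of type I interferon. Its receptor signals through the kinases Jak1 and Tyk2 to a complex with Stat2 and Irf9, which binds the interferon-stimulated response element (ISRE) in the promoters of target genes. Interferon gamma acts through another receptor and the GAS element, with the guanylate-binding and immunity-related GTPases among its best known targets. In the brain, microglia, endothelium and border macrophages respond strongly, and a higher interferon signature in aged brain tissue is well described.

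RefSeq promoter windows (GRCm38.p6, from 250 bases before to 50 bases after a start site) were at hand for 29 of the 42 members. The ISRE core searched, GAAA then any pair of bases then GAAA, on either strand with overlapping matches kept, was in the windows of 20 of these 29 genes (68.97%), against 3.993% of 27025 genes with a window. The GAS core searched, TTCNNNGAA on either strand, was in 9 of 29 (31.03%), against 9.554% of genes. A match describes letters only and does not show that a factor binds there. The stretches below are from 4 members: Ifit3 rose most in the acute arm, Isg15 holds 3 overlapping cores, Stat2 fell in the acute arm, and Gbp7 had the smallest p with age. Each is 120 bases, written 5′ to 3′ on the gene's strand, with ISRE cores in capitals on whichever strand they match.
Ifit3 (chr19:34583353-34583472, plus strand): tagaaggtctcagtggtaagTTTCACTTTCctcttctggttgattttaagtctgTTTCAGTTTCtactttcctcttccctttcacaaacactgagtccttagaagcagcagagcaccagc
Isg15 (chr4:156200819-156200938, minus strand): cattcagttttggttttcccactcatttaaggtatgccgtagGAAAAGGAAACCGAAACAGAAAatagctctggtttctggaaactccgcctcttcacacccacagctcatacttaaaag
Stat2 (chr10:128270256-128270375, plus strand): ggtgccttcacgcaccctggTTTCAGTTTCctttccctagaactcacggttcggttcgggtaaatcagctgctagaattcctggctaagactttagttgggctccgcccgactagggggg
Gbp7 (chr3:142530216-142530335, plus strand): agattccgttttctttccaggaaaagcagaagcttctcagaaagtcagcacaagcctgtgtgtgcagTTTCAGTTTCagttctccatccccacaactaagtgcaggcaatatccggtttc
The matching stretch of Ifit3b, the neighbouring copy of Ifit3, was identical at 120 of 120 bases. An ISRE core was present in the windows of genes that rose and of genes that fell. In the acute arm, 9 members with a core rose, 2 fell, 8 did not pass the test and 1 was too low. Among members with a window but no core, 3 rose, 1 fell, 4 did not pass and 1 was too low. Over all genes tested, 27.8% rose and 30.5% fell. The cores of Ddx58, which fell, and of Ifitm3, which rose, lay after the start site.

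Several properties of the libraries run alongside the groups. Total counts were 15848372 to 27399753. Mitochondrial transcripts made up 17% to 23.3% of counts in acute Gly-Low and 5.35% to 9.11% in acute control. The length slope, which is the slope of a library's deviation in log2 CPM (counts scaled to a common library size) on log2 transcript length, was −0.50 to −0.26 in acute Gly-Low and 0.16 to 0.27 in acute control, so long transcripts were relatively scarcer in acute Gly-Low. Young controls 1, 2 and 3 and old control 3 also had negative slopes. The 6 hypothalamic markers were detected in every library, but their sum was 265 to 1028 CPM in acute control and 1251 to 2317 CPM in acute Gly-Low, without overlap. The summed level of 5 pituitary markers reached 64100, 4189 and 32690 CPM in acute controls 2, 3 and 5, against 41.3 to 1335 CPM in the other libraries. Results are therefore also given without those 3 controls, except where the acute controls served as the reference for age. As the tissue is bulk, fewer cells of a type and less RNA per cell cannot be told apart.

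Per kilobase of transcript, the level of the members in young control spanned from 0.0921 CPM (Oasl1) to 42.3 CPM (Ifi27), with a median of 1.98 CPM. Ifitm3 and Ifit3 followed Ifi27 at 37.9 and 19.8 CPM per kilobase, although the Ifitm3 libraries were widely spread (25.7 ± 12.7 CPM, SD, n = 4, before division by length). At the other end lay the oligoadenylate synthetases Oas2, Oas3 and Oasl1 and the dynamin-like GTPase Mx1. These 4 were nearest to the count rule, with 10 or more counts in 9, 11, 6 and 10 libraries, and were too low for the acute test. Zbp1, Oas1a and Mx2 reached 10 counts in 15, 16 and 17 libraries, and the other 35 members in all 20. No listed gene lay below the rule.

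The group with the highest mean CPM was an old group for 34 of 42 members (81%), against 33.6% of all genes that met the count rule. No member was lowest in an old group, where 25.1% of all genes were lowest. Acute control was the lowest group for 22 members (52.4%, against 17.7% of all genes) and acute Gly-Low for 15 (35.7%, against 40.4%). Members differed in which of the 20 libraries was highest. It was old control 4 for 10 members, old Gly-Low 2 for 8, old control 2 for 6 and old control 3 for 4. Old control 1 and old Gly-Low 3 were highest for 0. These counts do not measure whether the members varied together.

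**Figure D1:**
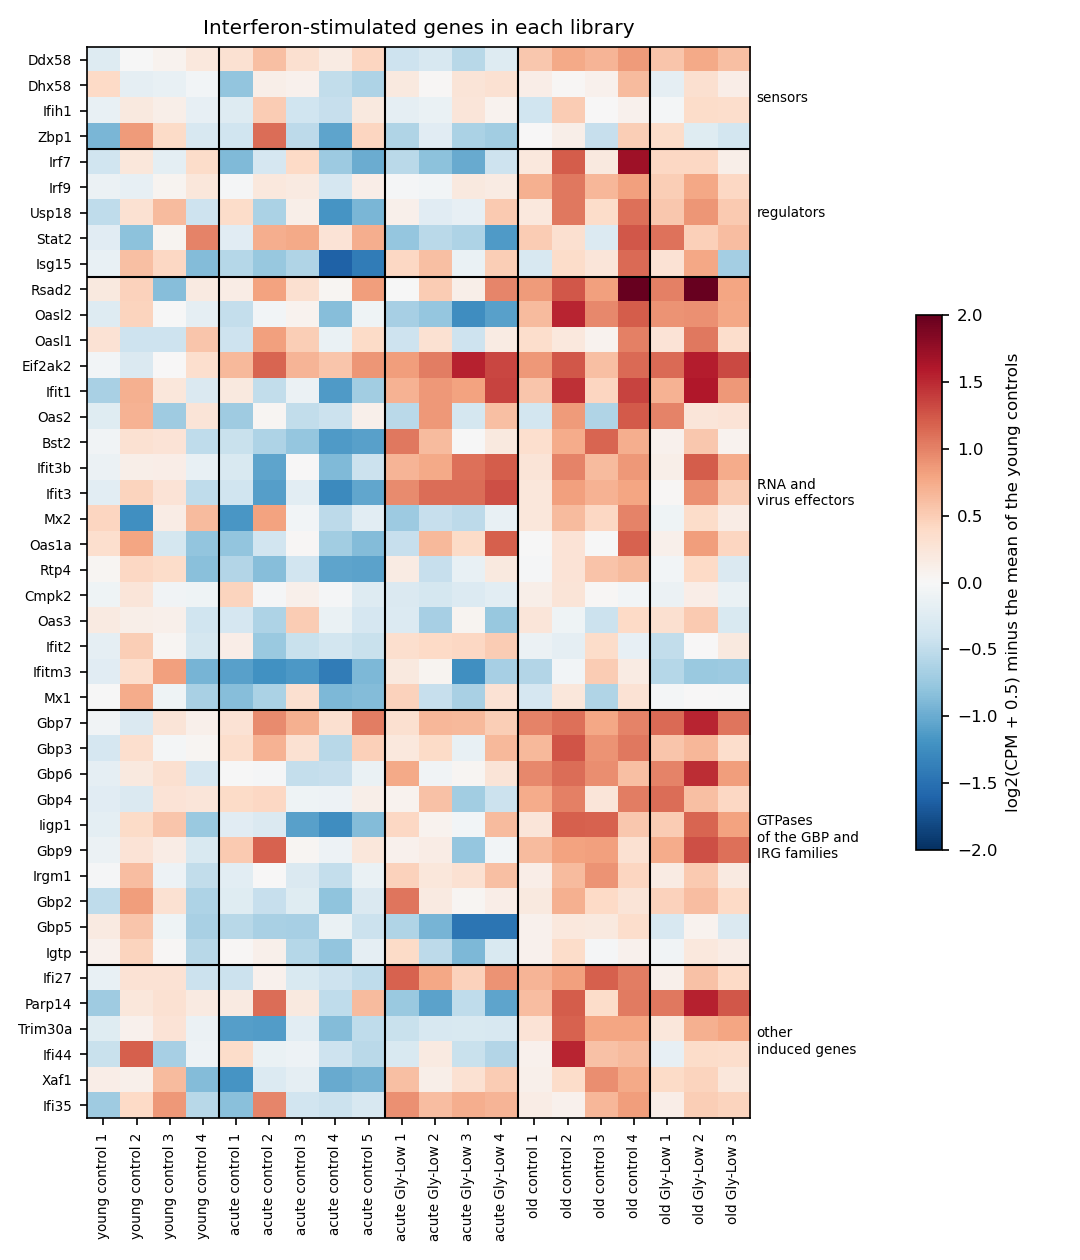
Each row is 1 of the 42 interferon-stimulated genes and each column 1 of the 20 libraries; colour gives log2(CPM + 0.5) minus the mean of the young controls, cut at −2 and 2. Black lines separate groups of libraries and roles of genes. Most rows are red in the old columns, and rows such as Ifit3 and Ifit3b are also red in acute Gly-Low and blue in most acute controls.

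The acute comparison asked what 1 week of Gly-Low does in mice 4 months old. The Ifit family, whose proteins bind foreign RNA, rose: Ifit3 was 3.76-fold and Ifit3b 2.82-fold higher in Gly-Low. Stat2, the partner of Irf9 in the activating complex, fell to 0.401 of the control level. Of the 38 members that could be tested, 15 rose and 4 fell at an adjusted p under 0.05. Among all 17161 genes tested, 58.3% were called, 27.8% higher and 30.5% lower, so the share of members that rose (39.5%) was above the background and the share that fell (10.5%) below it. Estimates were above 0 for 24 members (47.5% of all genes), and the median log2 fold change was 0.44 for the members and −0.07 for all genes. In 11 members every Gly-Low library was above every control library and in 2 every one was below (23% and 23.9% of all genes). Without acute controls 2, 3 and 5 the fit called 15 members, 14 of them shared with the full fit.

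Among the effectors against RNA and viruses, 8 of 13 tested rose and 1 fell, against 27.8% and 30.5% of all genes. Ifit3 (chromosome 19, GENCODE gene span 34583531 to 34588731 on GRCm38) read 25.1, 15.2, 28.7, 13.5 and 16.0 CPM in the acute controls and 64.9, 72.8, 73.1 and 81.9 CPM in acute Gly-Low. The groups did not overlap, and the lowest Gly-Low library exceeded even the highest of all young and old libraries, 63.1 CPM in old Gly-Low 2. The log2 fold change was 1.91 (SE 0.20, adjusted p 2.2e-06 by edgeR's quasi-likelihood test). Ifit3b read 12.2, 7.0, 15.3, 7.94 and 11.1 CPM in control and 24.5, 26.0, 33.1 and 35.8 CPM in Gly-Low, a log2 fold change of 1.49 (SE 0.22, edgeR adjusted p 3.7e-05). Of the 75-base windows in Ifit3 transcripts, 41.11% also occur in Ifit3b, so how far the copies changed separately depends on how shared reads were counted. Ifit1 (4.78 to 12.8 CPM in control, 18.4 to 29.1 in Gly-Low) changed by 1.40 (SE 0.25) and Ifit2 (23.2 to 43.3 and 49.9 to 56.3 CPM) by 0.79 (SE 0.16), both without overlap. All 4 Ifit genes lie within 1 stretch of chromosome 19.

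The tetherin gene Bst2, whose product holds budding virus at the cell surface, read 6.13, 5.42, 4.79, 3.61 and 3.77 CPM in control and 18.4, 13.6, 8.50 and 9.93 CPM in Gly-Low. Its log2 fold change was 1.43 (SE 0.25, edgeR adjusted p 0.00022). Ifitm3, which blocks viral fusion at membranes, overlapped between groups (8.58 to 12.2 and 9.64 to 26.8 CPM) with a change of 0.89 (SE 0.26, edgeR adjusted p 0.0083). Oas1a and Rtp4 also rose, by 1.65 (SE 0.52) and 0.83 (SE 0.26), with overlapping libraries. Oas1a shares 47.6% of its windows with Oas1g. Oasl2, an OAS-like protein, fell: control libraries read 8.94, 12.1, 13.2, 6.77 and 11.8 CPM and Gly-Low libraries 7.73, 7.16, 5.00 and 5.68 CPM (log2 fold change −0.71, SE 0.23, edgeR adjusted p 0.016), and 1 control lay among the Gly-Low values. The kinase Eif2ak2 (PKR), which halts translation on double-stranded RNA, missed the threshold at 0.43 (SE 0.18, edgeR adjusted p 0.052).

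The regulators split. Isg15, a ubiquitin-like modifier, read 2.38, 2.03, 2.32, 0.886 and 1.12 CPM in control and 5.17, 5.96, 3.36 and 5.49 CPM in Gly-Low, a change of 1.54 (SE 0.33, edgeR adjusted p 0.0011). Stat2 read 6.28, 12.5, 12.8, 9.0 and 12.6 CPM in control and 4.14, 4.92, 4.64 and 3.08 CPM in Gly-Low, all lower, with a change of −1.32 (SE 0.25, edgeR adjusted p 0.00035). Its partner Irf9 stood at 10.7 to 16.0 CPM in control and 13.2 to 15.8 CPM in Gly-Low (0.05, SE 0.16, edgeR adjusted p 0.82). Neither Irf7, the factor that amplifies interferon production (−0.32, SE 0.39), nor Usp18, which removes Isg15 from proteins (0.50, SE 0.38), passed the test.

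Of the 4 sensors, only Ddx58 (RIG-I) passed the test. It read 10.9, 13.4, 11.0, 9.85 and 11.9 CPM in control and 6.45, 6.88, 5.77 and 7.22 CPM in Gly-Low, all lower, with a change of −0.78 (SE 0.17, edgeR adjusted p 0.0014). Ifih1 (MDA5), which senses long double-stranded RNA, was at 0.05 (SE 0.23). In the GTPase families, 3 of 10 rose, each without overlap: Irgm1 by 0.65 (SE 0.15), Gbp2 by 0.87 (SE 0.24) and Iigp1 by 1.14 (SE 0.32). That is near the shares of all genes, of which 27.8% rose and 23% were higher without overlap. Among the remaining genes, Ifi27 read 27.3, 39.0, 29.8, 27.5 and 25.8 CPM in control and 84.0, 63.3, 51.1 and 68.8 CPM in Gly-Low, a change of 1.18 (SE 0.16, edgeR adjusted p 2.1e-05). Xaf1 rose by 1.17 (SE 0.27) and Ifi35 by 0.90 (SE 0.36). Parp14, a mono-ADP-ribosyltransferase with the longest transcripts of the 42 members (median 7417 bases), fell by 1.37 on the log2 scale (SE 0.33), from 3.40 to 11.5 CPM in control to 2.13 to 3.41 CPM in Gly-Low, which overlap.

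**Figure D2:**
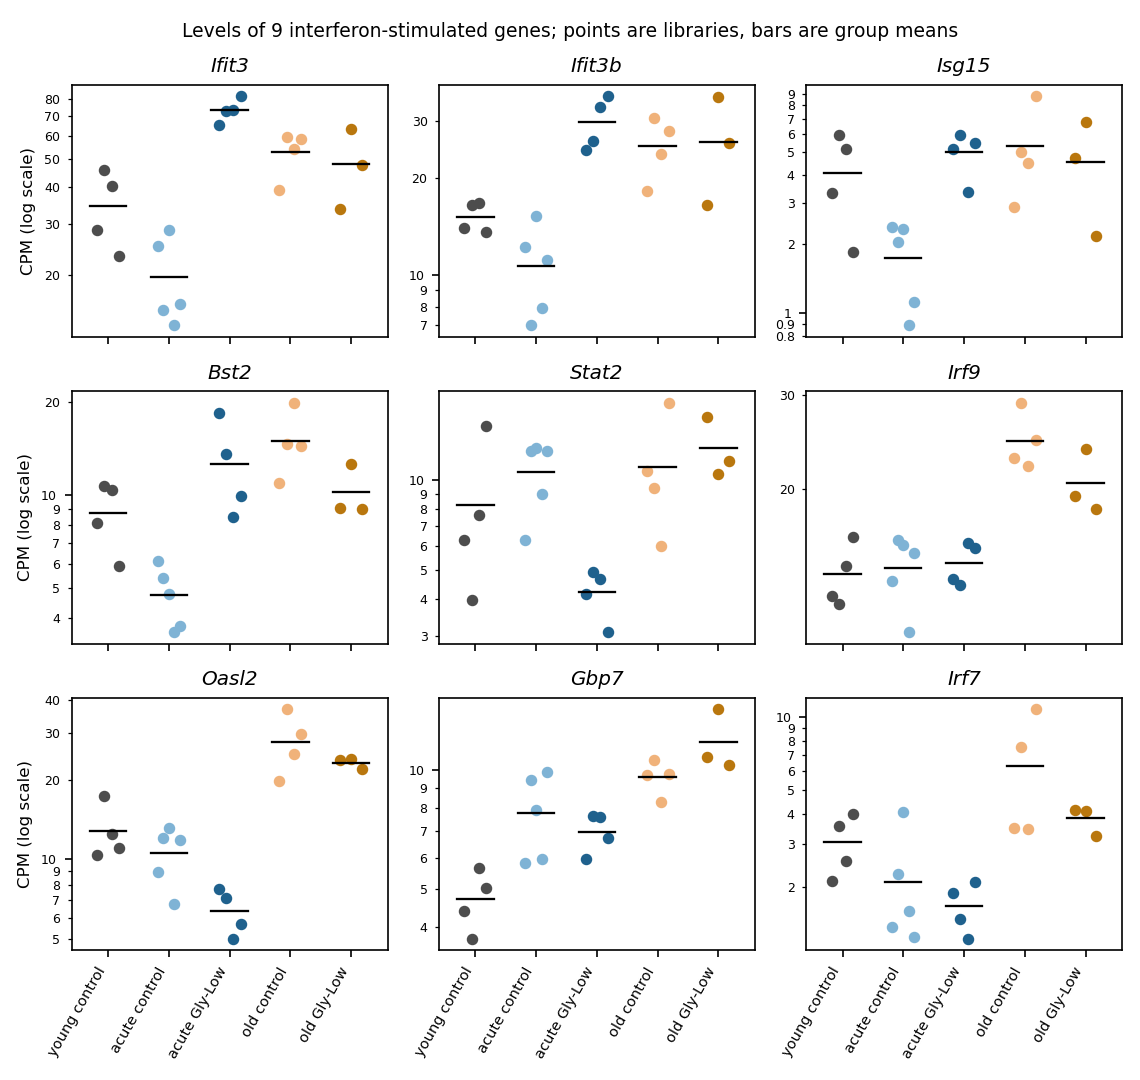
CPM on a log scale in the 5 groups for 9 interferon-stimulated genes; each point is a library and each bar the group mean. Ifit3, Ifit3b, Isg15 and Bst2 do not overlap between the acute groups, and Irf9 and Oasl2 are higher in all 7 old libraries than in the other 13.

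Transcript length moved with these differences. Across members the Spearman correlation of the acute log2 fold change with transcript length was −0.60 over 38 genes, and −0.56 over all genes tested; the genes share the same 9 libraries. With all genes divided by length into 3 classes, 8 of the 11 members in the shortest class rose. In the middle class 6 of 16 rose and 1 fell, and in the longest class 1 of 11 rose and 3 fell. All genes showed the same order, with 52.7%, 21.6% and 9.10% rising. The short genes Isg15, Bst2 and Ifi27 lay between the quartiles of genes of similar length, as did Ifitm3, Ddx58, Oasl2 and Parp14. Ifit1, Ifit2, Ifit3, Ifit3b, Oas1a, Xaf1, Gbp2, Iigp1 and Irgm1 lay above the upper quartile for their length and Stat2 below the lower one.

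An offset that removes each library's trend over 40 length bins left 10 of the 19 calls in place, 9 higher and Stat2 lower, and added 3. Under it the log2 fold change was 1.69 for Ifit3, 1.37 for Ifit3b and 1.59 for Ifit1, but 0.29 for Isg15, 0.24 for Bst2 and 0.18 for Ifi27, none of the last 3 past the threshold (edgeR adjusted p 0.47, 0.37 and 0.26). Ifitm3 turned to −0.40. When the fit of all 20 libraries carried their length slopes as a covariate, 4 of the 19 calls remained: Ifit3 (1.21), Ifit3b (1.23), Ddx58 (−0.71) and Oasl2 (−1.1). Stat2 turned to 0.29 there, and Irgm1, Gbp2, Iigp1 and Rtp4 also changed sign. The slopes of the acute groups did not overlap (−0.50 to −0.26 in Gly-Low, 0.16 to 0.27 in control). Within that arm the covariate and the diet therefore cannot be told apart, and a lost call does not show that a member was unchanged. Ifit3 and Ifit3b were the 2 genes whose acute call held in every alternative that was run.

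**Figure D3:**
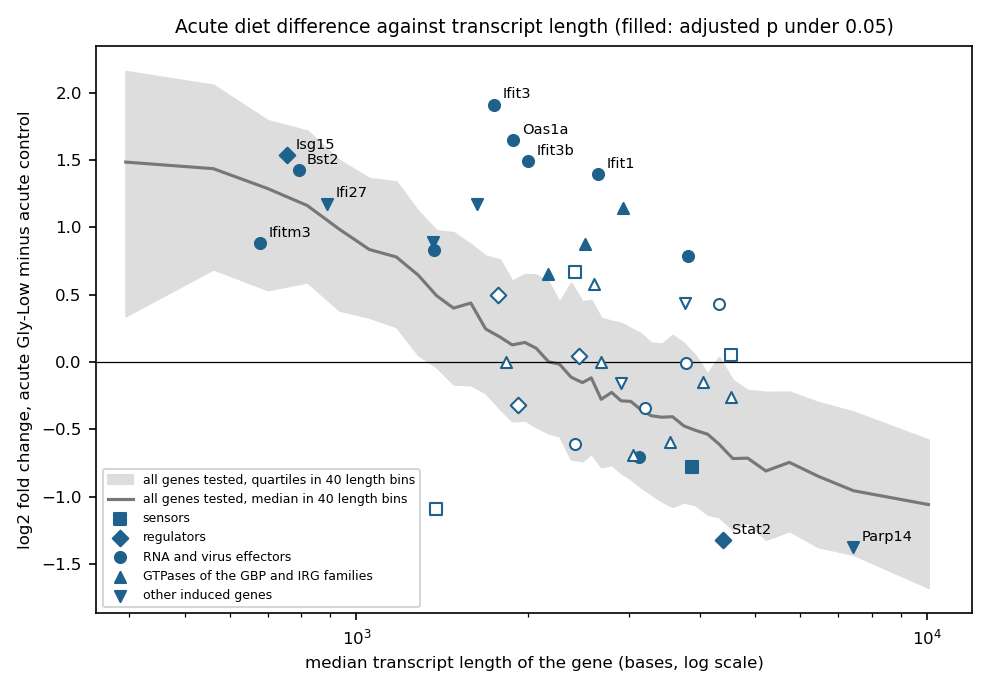
The log2 fold change between the acute groups against median transcript length (log scale) for the 38 members tested; the grey line and band are the median and quartiles of all genes tested in 40 length bins. Short genes such as Isg15, Bst2 and Ifi27 sit inside the band, and Ifit3, Ifit3b and Ifit1 sit above it.

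Markers of other cells also moved in the acute arm. The summed level of 5 border macrophage markers was 28.1 to 40.2 CPM in Gly-Low and 8.4 to 11.9 CPM in control, and that of 5 erythrocyte markers 556 to 1506 and 72.7 to 322 CPM. The 4 meningeal fibroblast markers summed to 82.1 to 159 CPM in Gly-Low and 34.4 to 62.3 CPM in control, and the 5 ependymal and tanycyte markers to 101 to 191 and 36.5 to 45.8 CPM. Neuronal markers (4) were lower in Gly-Low, at 1567 to 1952 against 2194 to 2705 CPM, as were the 4 mural cell markers, at 86.5 to 119 against 121 to 152 CPM. The 7 microglial markers summed to 289 to 327 CPM in Gly-Low and 259 to 310 CPM in control. The part of these cells in the member differences was not tested.

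Other genes of the pathway are read against the 27.8% of all genes that rose and the 30.5% that fell. Their estimates are not corrected for transcript length, with which the acute fold change fell over all genes tested (Spearman correlation −0.56). Length-corrected values of these genes are not reported here. Of 21 interferon ligands, 15 had no count in any library, and Ifng reached at most 12 counts in a library, so none could be tested in the acute or ageing fits. Of 6 receptor genes, 2 rose and 1 fell: the type I subunit Ifnar1 fell by 0.47 (SE 0.13, edgeR adjusted p 0.0058), the gamma subunit Ifngr2 rose by 0.70 (SE 0.13) and Il10rb rose by 0.64 (SE 0.21). Ifnar2 (−0.16, SE 0.14) and Ifngr1 (0.15, SE 0.13) did not pass. Further down the pathway, Stat3 fell by 1.88 (SE 0.16) and the kinase Jak1 by 1.26 (SE 0.13). Of 10 brakes on the pathway 3 fell and 1 rose, with Pias1 (−0.84, SE 0.13), Pias3 (−0.98, SE 0.19) and the phosphatase Ptpn2 (0.65, SE 0.15) the smallest in p. Among 16 tested sensing-pathway genes 5 rose and 4 fell, also near those shares, and the smallest p belonged to the RNase H2 subunits Rnaseh2b (1.14, SE 0.16) and Rnaseh2c (1.51, SE 0.23) and the endosomal RNA sensor Tlr7 (1.88, SE 0.27). Irf3, which starts interferon transcription, was at 0.35 (SE 0.14, edgeR adjusted p 0.0499). Another 66 interferon-induced genes gave 20 higher and 20 lower (30.3% each, near the shares of all genes), with Adar (−2.13, SE 0.21), Lgals3bp (−1.94, SE 0.19) and Trim12c (1.54, SE 0.16) the smallest in p. Their median was 0.27.

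With age, old control against young control, 38 of 42 members had estimates above 0, with a median log2 fold change of 0.69, yet none passed the test. Over all 18281 genes 51.9% of estimates were above 0, the median was 0.02 and 0.0328% were called. At an unadjusted p under 0.05 there were 18 members, all higher (3.79% of all genes were higher at that level and 5.31% lower). In 14 members every old control library was above every young control library, against 2.77% of all genes, and in 0 was every one below (2.95%). By role, that separation held for 5 of 17 effectors, 4 of 10 GTPases, 3 of 6 other induced genes, 1 of 5 regulators and 1 of 4 sensors. DESeq2 called 8 members higher, where it called 1.15% of all genes higher, and limma-voom with quality weights called 12, where it called 9.43% higher. The Spearman correlation of the age estimate with transcript length was 0.19 over 42 members and 0.25 over all genes.

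**Figure D4:**
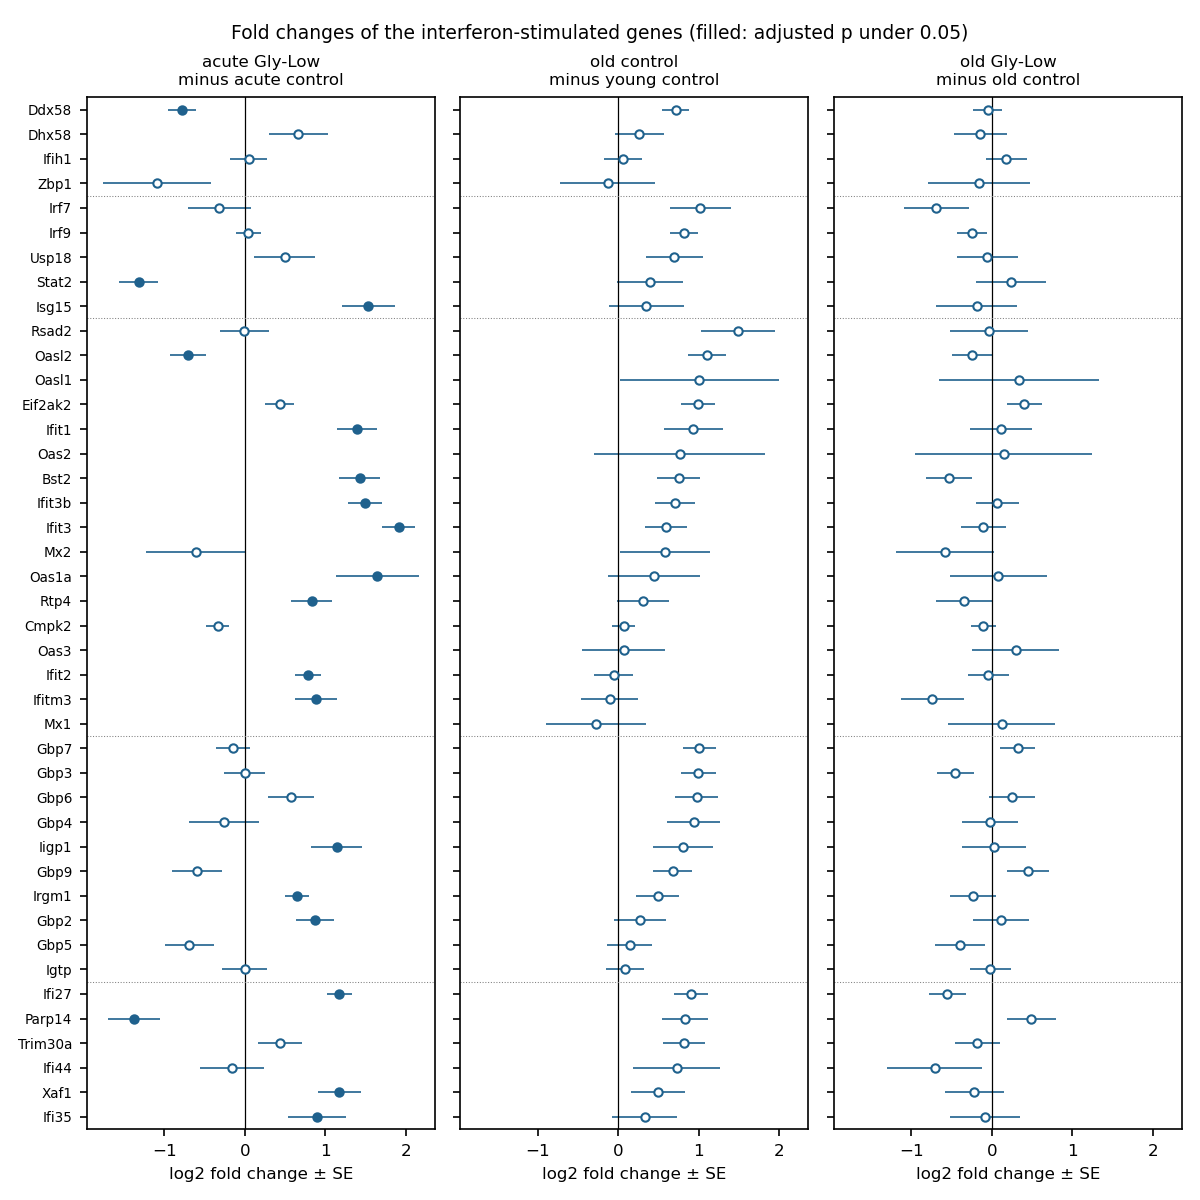
Log2 fold changes with SE of the 42 members, grouped by role, for acute Gly-Low minus acute control, old control minus young control, and old Gly-Low minus old control; filled points passed an adjusted p of 0.05. In the first panel 15 filled points lie right of 0 and 4 left, and in the other panels no point is filled.

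Gbp7, a guanylate-binding GTPase, had the smallest p with age. Its young controls read 4.39, 3.73, 5.65 and 5.02 CPM and its old controls 9.69, 10.6, 8.31 and 9.79 CPM, a log2 fold change of 1.01 (SE 0.21, edgeR adjusted p 0.14). All old libraries lay above all young ones, but the acute controls, only 4 months old, read 5.80 to 9.91 CPM, so they reached into the old range. Of its windows 11.28% are shared, mostly with the overlapping gene Gm43802. Eif2ak2 had the same pattern: 6.59 to 10.4 CPM in young control, 12.7 to 20.1 in old control (0.99, SE 0.21, edgeR adjusted p 0.14) and 12.3 to 18.9 in acute control. When the acute controls replaced the young controls as reference, an alternative chosen after seeing the data, the age difference was 0.30 for Gbp7 and 0.19 for Eif2ak2.

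Irf9 and Oasl2 differed from those in this respect. Irf9 read 12.5, 12.1, 14.3 and 16.2 CPM in young control, against 22.8, 29.0, 22.0 and 24.7 CPM in old control and 19.4, 23.8 and 18.3 CPM in old Gly-Low. Every one of the 7 old libraries exceeded every one of the 13 others, whose highest was 16.2 CPM. The age difference was 0.82 (SE 0.17, edgeR adjusted p 0.14). The span of Irf9 overlaps Rnf31 on the same strand, and 0.8543% of its windows are shared with that gene. Oasl2 read 10.4, 17.4, 12.5 and 11.0 CPM in young control, against 19.9, 37.0, 25.0 and 29.9 CPM in old control and 23.8, 24.0 and 21.9 CPM in old Gly-Low, again above all 13 others, with an age difference of 1.1 (SE 0.23, edgeR adjusted p 0.14). These were the 2 members with that separation, which 0.209% of the 19139 genes showed. Gbp6 exceeded the 9 young and acute controls in all 7 old libraries, but not acute Gly-Low 1, and 67.33% of its windows are shared with other genes, mostly Gm43302. Against the acute controls, Irf9 was at 0.80 (edgeR adjusted p 0.024) and Oasl2 at 1.40 (edgeR adjusted p 0.0045), and 9 members were called, all higher, against 0.331% of all genes.

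Other members were less even across the old controls. For Irf7 the young controls read 2.13, 3.56, 2.55 and 3.99 CPM and the old controls 3.51, 7.56, 3.47 and 10.8 CPM (1.02, SE 0.38, edgeR adjusted p 0.42), so old controls 2 and 4 carried the difference and old controls 1 and 3 lay within the young range. The span of Irf7 overlaps Phrf1 on the other strand, so reads of these genes may not be separated. Rsad2 (viperin) had the largest estimate, 1.49 (SE 0.46), with 13.6 CPM in old control 4 and 4.72 to 6.48 CPM in the other old controls. Ifit3 overlapped (23.4 to 45.6 CPM young, 39.1 to 59.3 CPM old; 0.59, SE 0.26), as did Isg15 (0.35, SE 0.47), Stat2 (0.40, SE 0.41) and Usp18 (0.70, SE 0.35). Bst2 did not overlap (5.91 to 10.7 and 11.0 to 19.9 CPM; 0.75, SE 0.27, edgeR adjusted p 0.40). Ifitm3 (−0.10, SE 0.35) and Ifih1 (0.06, SE 0.24) were close to 0.

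The 7 microglial markers summed to 434 to 548 CPM in old control and 276 to 356 CPM in young control, so all old controls were higher. The microglial sum was 407 to 457 CPM in old Gly-Low, 259 to 310 CPM in acute control and 289 to 327 CPM in acute Gly-Low. Every old library thus exceeded every younger one. The 5 erythrocyte markers summed to 864 to 1803 CPM in old control against 63.5 to 373 CPM in young control. Other marker lists were also apart between old and young control. Astrocyte markers summed to 2176 to 2723 against 1663 to 1957 CPM, oligodendrocyte markers to 6220 to 7496 against 4080 to 4856 CPM, and choroid plexus markers to 35.5 to 54.1 against 19.3 to 31.6 CPM. The B and plasma cell markers were higher (3.71 to 7.12 against 1.07 to 2.18 CPM) and the T and NK cell markers lower (3.71 to 6.65 against 7.23 to 14.3 CPM), with up to 5 of 6 T and NK cell markers at 0 in a young control. Border macrophage markers (9.48 to 16.4 against 8.12 to 15.5 CPM) and endothelial markers (91.7 to 222 against 127 to 159 CPM) overlapped, as did the remaining lists. Whether any of these cells contribute to the member differences was not tested. No receptor gene passed the age test, nor did Irf3: Ifnar1 was at 0.31 (SE 0.17), Ifnar2 at 0.12 (SE 0.22), Ifngr1 at 0.12 (SE 0.19) and Irf3 at −0.17 (SE 0.22). Of the 76 other interferon-induced genes tested, 62 had estimates above 0, with a median of 0.43.

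The old diet comparison asked whether 5 months of Gly-Low shifts these genes in mice 25 months old. No member passed the test, and 0% of the 18281 genes did. Estimates were above 0 for 16 of 42 members and the median was −0.05, against 53.3% and 0.03 for all genes. At an unadjusted p under 0.05 there was 1 member, which was lower, against 2.37% of all genes (1.29% higher and 1.08% lower), and DESeq2 called 0. The age and old diet comparisons share the old controls, so their estimates are not independent.

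Ifi27 was the member below that p. It read 59.4, 65.6, 84.7 and 75.5 CPM in old control and 39.4, 55.7 and 48.5 CPM in old Gly-Low, all lower, with a log2 fold change of −0.55 (SE 0.23, edgeR adjusted p 0.95). Gbp5 was the other member with all Gly-Low libraries lower (−0.39, SE 0.31), a separation 3.5% of all genes showed; 0 members had all Gly-Low libraries higher (3.02%). Next by p were Gbp3 (−0.45, SE 0.23) and Ifitm3, which read 15.4, 22.5, 33.4 and 26.1 CPM in old control and 15.6, 13.8 and 13.9 CPM in old Gly-Low (−0.74, SE 0.39). Both overlapped. For the Ifit genes estimates lay near 0, from −0.11 (Ifit3, SE 0.28) to 0.12 (Ifit1, SE 0.39). Irf7 was at −0.69 (SE 0.41) and Irf9 at −0.24 (SE 0.18), both with overlapping libraries. Stat2 (0.24, SE 0.44), Isg15 (−0.19, SE 0.50), Usp18 (−0.05, SE 0.37), Bst2 (−0.53, SE 0.29), Ifih1 (0.18, SE 0.25) and Eif2ak2 (0.40, SE 0.22) did not pass either. None of these differences passed the threshold after adjustment over all genes. Transcript length ran with this comparison too, in the opposite direction to the acute arm. The Spearman correlation of the log2 fold change with length was 0.57 over 42 members and 0.46 over all genes. In the shortest, middle and longest class, medians were −0.20, −0.10 and 0.18 for members and −0.19, 0.02 and 0.22 for all genes. Ifi27 (889 bases) lay in the shortest class. Length-corrected estimates of single members are not reported here for this comparison. The border macrophage markers summed to 17.4 to 20.8 CPM in old Gly-Low against 9.48 to 16.4 CPM in old control. Meningeal fibroblast markers also stood higher without overlap (52.8 to 65.9 against 34.7 to 52.2 CPM). Oligodendrocyte markers were lower (4439 to 6215 against 6220 to 7496 CPM). The other marker lists overlapped, and the part of these cells in the member differences was not tested.

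Against the young controls, old Gly-Low libraries gave 35 of 42 estimates above 0 (52.7% of all genes) and 0 calls (0.00547% of all genes were called; DESeq2 called 7 members higher and 1.18% of all genes higher). At an unadjusted p under 0.05 there were 14 members, all higher (6.23% of all genes were higher and 8.6% lower). In 11 every old Gly-Low library was above every young one and in 0 below (6.07% and 7.3% of all genes). Eif2ak2 read 18.5, 25.2 and 21.2 CPM in old Gly-Low, at 1.39 (SE 0.22, edgeR adjusted p 0.10), followed by Gbp7 at 1.33 (SE 0.22) and Gbp9 at 1.13 (SE 0.26).

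The diet estimates of the 2 arms were compared directly, as the old Gly-Low difference minus the acute one, in a fit of all 20 libraries. This difference passed the test for 14 members, 3 above 0 and 11 below (36% of all genes were called, 16.8% above and 19.2% below). Of those below 0 the largest in size was Ifit3 at −2.02 (SE 0.37, edgeR adjusted p 0.00040), where the acute estimate was 1.91 and the old one −0.11. Bst2 followed at −1.96 (SE 0.39), then Isg15 at −1.73 (SE 0.62) and Ifi27 at −1.73 (SE 0.28). Stat2 (1.54, SE 0.53), Ddx58 (0.72, SE 0.22) and Parp14 (1.86, SE 0.47) were above 0. The arms also differ in age, duration and the length slopes of their libraries, which cannot be told apart from the diet effect. The length offset gave 5 calls, all below 0, the length covariate 1, and the fit without acute controls 2, 3 and 5 gave 7. Without old Gly-Low 1 there were 8 calls, and without acute Gly-Low 1, acute Gly-Low 4, old control 3 or old Gly-Low 3 there were 9.

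The 2 groups of young control-diet mice, 4 and 3 months old, were also compared, acute control minus young control. Eif2ak2 (0.82, SE 0.20, edgeR adjusted p 0.026) and Gbp7 (0.73, SE 0.20, edgeR adjusted p 0.041) were higher in acute control, without overlap, and Ifitm3 (−1.32, SE 0.31, edgeR adjusted p 0.024) and Bst2 (−0.89, SE 0.25, edgeR adjusted p 0.048) were lower. That is 2 of 42 in each direction, against 5.29% of all genes called, 0.923% higher and 4.37% lower. All acute controls were above all young controls in 2.11% of genes and below them in 3.58%. Ifit3 read 28.7, 45.6, 40.2 and 23.4 CPM in young control and 13.5 to 28.7 CPM in acute control (−0.81, SE 0.24, edgeR adjusted p 0.055). All 4 calls were lost without acute controls 2, 3 and 5, and with the length offset or covariate. The count was also 0 without any single one of young controls 1, 2 and 3 and acute controls 2 and 5, it was 2 without acute control 1, acute control 4, old Gly-Low 1 or old Gly-Low 3, 7 without old control 3, and 11 without young control 4.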

How the data were processed

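RNA from mouse hypothalamus was poly-A selected and sequenced as non-directional libraries, per the labels' protocols, so a gene and its antisense partner cannot be told apart. The authors deposited raw read counts per gene. Build GRCm38 and the tools DESeq2 1.20.0, HISAT2 2.0.5 and featureCounts 1.5.0-p3 are listed in the submitters' processing notes. Which tool did what, the annotation release and the strand setting: not given in the sources used here.

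Genes were matched to GENCODE vM21 for symbols, positions and lengths (median of basic transcripts), with 54495 of 54532 matched. CPM are counts scaled to a common library size by TMM factors over all 20 libraries. Low genes were removed with filterByExpr, and edgeR 4.0.16 in R 4.3.3 tested each contrast by its quasi-likelihood F test, with Benjamini-Hochberg adjustment over all genes and a threshold of 0.05. The acute contrast used 9 libraries, the ageing contrasts 11 and the contrasts across arms 20. Alternatives with limma 3.58.1, DESeq2 1.42.0, other factors, filters, sample sets, a replicate block, length corrections and libraries left out are summarised at the end. In simulated counts the acute test recovered 49% of 2-fold and 83% of 4-fold changes over 16813 genes, and the age test 14% and 63% over 17883 genes. The simulation changed only a small set of genes and drew genes independently, with no trend over length. In the acute data 58.3% of genes were called, so the simulated shares need not hold there.

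The members, gene lists and tests were chosen with earlier results of these data known. Named members are the 5 with the smallest p in each direction past the threshold in the acute, age and old diet comparisons (all if fewer, the 3 smallest where fewer than 3 passed), the 3 with the smallest p elsewhere, and 10 members named whatever their values; others are named to account for all members, after their values were seen. Of each pathway list up to 3 genes past the threshold are named, with Ifnar1, Ifnar2, Ifngr1 and Irf3 always; some genes of these lists are not reported here. Same-numbered old control and old Gly-Low libraries deviated together (correlations 0.417, 0.272 and 0.253), though 0 of 3 correlated best with its own number, and the numbers come from the titles and the column names of old Gly-Low carry others. No library duplicated another.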

Additional observations from a re-analysis of the deposited data

Results flagged for a closer look

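The diet difference between the arms is the old Gly-Low estimate minus the acute estimate on the log2 scale. It passed the edgeR test for 14 of 42 members, against 36% of all genes (16.8% above 0 and 19.2% below). It was −1.73 for Ifi27, −2.02 for Ifit3, −1.96 for Bst2, −1.44 for Ifit3b, −1.62 for Ifitm3, −1.39 for Xaf1, −0.89 for Irgm1, −0.84 for Ifit2, −1.73 for Isg15, −1.18 for Rtp4 and −1.29 for Ifit1. It was 1.86 for Parp14, 0.72 for Ddx58 and 1.54 for Stat2. No call of these 14 held in every alternative: Ifit3 and Ifit3b each lost it in 1 alternative, the covariate for length slope.

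In 1 of 76 groups of libraries examined over 19 named members, a library stood far from the rest of its group: Parp14 was at 2.88 CPM in young control 1, against 5.79 to 6.36 CPM in the other young controls. About 1 in 20 such groups would do so by chance.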

How the results depend on the processing

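The count of called members in the acute comparison (19) stayed between 13 and 22, except for 7 with the length slope as a covariate; leaving out each library gave 17 to 20. Under that covariate Stat2 turned to 0.29 in the acute comparison and to −0.51 in the difference between arms, Ifitm3 turned to −0.35, and the differences between arms of Ifit2, Irgm1 and Rtp4 turned to 0.07, 0.25 and 0.06; with the length offset Ifitm3 turned to −0.40. Beside 0 for age, the count was 8 with DESeq2, 12 with limma-voom, 6 in the fit of all 20 libraries, 1 with the length offset, 11 with the length covariate and 9 with the acute controls as reference, all higher. Leaving out any library gave 0 for age and for the old diet comparison, whose count was 0 in every alternative run; its median turned to 0.10 with limma-voom and to 0.03 without old control 4. For old Gly-Low against young control (0) it was 7 with DESeq2, 19 with limma-voom, 3 with all 20 libraries, 4 with the length covariate, and 0 to 2 without single libraries (2 without young control 4). For the 2 young groups (4) it was 8 with DESeq2, 13 with limma-voom, 7 with a filter of 1 CPM, 2 with no filter, 0 to 11 without single libraries, and 0 with only the groups compared, with either length correction, without acute controls 2, 3 and 5, or without young control 2 and old control 3. For the difference between arms (14) it was 8 with no filter, 5 with the length offset, 1 with the length covariate, 7 without acute controls 2, 3 and 5, and 8 to 14 without single libraries. With the replicate number as a block, counts were 16 for the acute comparison, 0 for age, 0 for the old diet comparison, 11 for old Gly-Low against young control, 0 for the young groups and 10 for the difference between arms; same-numbered acute libraries had correlations from −0.04 to 0.00, and young and old controls −0.05, 0.27, 0.09 and 0.60, with numbers 2 and 4 best with their own, so not every pair deviated together. Young control and old Gly-Low gave 0.01, 0.40 and 0.00, with number 2 best with its own. The causes of these changes were not tested. Beyond the shares stated in earlier paragraphs, the shares of all genes called under these alternatives are not reported here. A higher or lower count is therefore not a result about the members. Depth limits Oas2, Oas3, Oasl1 and Mx1, with at most 37 counts in a library.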
